A study of Mus musculus with 7 samples.

Results

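The Hoxd cluster was followed across the skin of the mouse, in the 9 genes of the cluster (Hoxd1, Hoxd3, Hoxd4, Hoxd8, Hoxd9, Hoxd10, Hoxd11, Hoxd12 and Hoxd13) that were chosen by symbol from a table of 22552 gene symbols. All 9 were found in the table, which lists 39 Hox genes in all. RNA was sequenced from cells purified by flow sorting from skin of CD1/C3H mice at postnatal day 50, in 7 libraries. Wild-type (Wt/Wt) mice gave ear dermis, dorsal dermis, tail dermis, ear epidermis and dorsal epidermis, and heterozygous Wt/Koa mice, carriers of the Koala allele, gave ear dermis and ear epidermis. Each group had 1 library, so nothing in the data measures variation between animals and no test between groups was possible. The labels give neither the number of animals pooled nor the gates of the sort. The study compared ear with trunk skin and wild-type with Koa ears, and Koa is an inversion on the chromosome that carries the Hoxc cluster, not on that of the Hoxd cluster.

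Hox genes encode homeodomain transcription factors that give cells of the embryo their position along the body axis. In each of the 4 mammalian clusters the genes at the 3′ end start early and act towards the head, and those at the 5′ end start later and act towards the tail. Fibroblasts of adult skin are known to keep a Hox pattern that follows their site of origin. In the Hoxd cluster the 5′ genes Hoxd10 to Hoxd13 pattern limbs, digits and the genital tubercle in mouse embryos, and Hoxd13 is the gene of synpolydactyly in people. Hoxd3 and Hoxd4 act in the neck vertebrae, and Hoxd1 in pain-sensing neurons of the mouse.

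In the RefSeq annotation of GRCm38.p6 the 9 genes lie on the plus strand of chromosome 2 at chr2:74668225-74765142, within 96.9 kb. From the 5′ end by start position their order is Hoxd13, Hoxd12, Hoxd11, Hoxd10, Hoxd9, Hoxd8, Hoxd3, Hoxd4 and Hoxd1. The spans of Hoxd11 and Hoxd10 overlap, the span of Hoxd3 holds all of Hoxd4, and the antisense RNA Hoxd3os1 overlaps Hoxd8 and Hoxd3. The sources used here do not say whether reads were counted by strand, so values of these overlapping genes are uncertain by the reads they could share. Hoxd3os1 stands in the table under the name 1700109F18Rik and did not exceed 0.471 FPKM in any library.

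Promoters are shown for 4 genes: Hoxd8 and Hoxd9, the most abundant members in skin, Hoxd4, the remaining member that reached 1 FPKM, and Hoxd13, which was listed at 0 in every library. Each sequence is the plus strand of GRCm38.p6 from RefSeq, from 250 bases before the start of the gene to 50 after it. Capitals mark matches to the motifs searched on both strands. These were TGATTNAT (the joint Pbx-Hox motif), TAATTA (the homeodomain core), TGACAG (the Meis motif), CCAAT (the CCAAT box) and TATAAA (the TATA box).
Hoxd8, chr2:74704365-74704664: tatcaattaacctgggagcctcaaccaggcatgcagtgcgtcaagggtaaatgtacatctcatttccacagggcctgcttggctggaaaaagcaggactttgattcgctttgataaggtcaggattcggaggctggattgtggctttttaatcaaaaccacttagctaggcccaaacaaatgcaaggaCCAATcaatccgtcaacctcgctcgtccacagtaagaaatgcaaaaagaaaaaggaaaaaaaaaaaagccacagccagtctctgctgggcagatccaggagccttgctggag
Hoxd9, chr2:74697513-74697812: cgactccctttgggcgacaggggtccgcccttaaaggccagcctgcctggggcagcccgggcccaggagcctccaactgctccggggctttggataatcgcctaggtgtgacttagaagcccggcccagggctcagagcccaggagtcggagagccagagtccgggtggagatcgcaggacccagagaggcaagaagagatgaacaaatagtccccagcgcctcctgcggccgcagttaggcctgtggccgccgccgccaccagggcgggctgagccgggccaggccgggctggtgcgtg
Hoxd4, chr2:74721728-74722027: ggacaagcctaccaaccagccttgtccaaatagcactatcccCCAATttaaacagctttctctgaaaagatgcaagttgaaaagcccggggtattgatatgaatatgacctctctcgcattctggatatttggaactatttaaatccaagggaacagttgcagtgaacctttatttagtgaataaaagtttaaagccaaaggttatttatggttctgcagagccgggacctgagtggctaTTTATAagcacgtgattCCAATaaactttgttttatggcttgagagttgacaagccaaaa
Hoxd13, chr2:74667975-74668274: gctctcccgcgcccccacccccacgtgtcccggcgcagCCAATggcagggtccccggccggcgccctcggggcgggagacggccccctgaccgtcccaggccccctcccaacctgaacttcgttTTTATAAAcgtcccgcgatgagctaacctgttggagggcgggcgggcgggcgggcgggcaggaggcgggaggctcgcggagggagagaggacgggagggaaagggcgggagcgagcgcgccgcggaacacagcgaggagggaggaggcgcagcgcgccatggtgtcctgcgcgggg
The Hoxd8 window had 46.7% G and C with 6 CpG, and the Hoxd4 window 39.7% with 4 CpG. The window of Hoxd9 had 68.3% with 20 CpG, and that of Hoxd13 was the richest of these 4, with 74.3% and 37 CpG. Over 32851 RefSeq promoter windows of the same length the median was 52.7% with 7 CpG. A CCAAT match, held by 37.4% of all windows, occurred in Hoxd8, Hoxd4 and Hoxd13, and Hoxd9 held none of the 5 motifs. TATAAA, held by 13.6% of windows, occurred in Hoxd4 and, on both strands in 2 overlapping matches, in Hoxd13. None of the 4 held TGATTNAT (3.22% of windows), TAATTA (5.29%) or TGACAG (19.2%). A match is a run of letters and says nothing of binding.

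Levels are given as FPKM (fragments per kilobase of transcript, relative to all mapped fragments), a scale per length on which genes can be set side by side. For 6 libraries the depth was recovered from the values as 31.7 to 40.5 M (mega) fragments, so that a level could be turned into fragments with an exact 95% interval. Those intervals cover counting error only. A listed 0 can also be a failed estimate, since Col1a1, Col1a2 and Col3a1, among the most abundant RNAs of fibroblasts, are each listed at 0 in some dermal libraries, so the level of 3 fragments given beside a 0 applies only if the estimate worked. The tail values differ in form from the other 6 columns. They are rounded to 2 decimals with unknown depth, and list 222 of the 4885 symbols at 10 FPKM or more in all other libraries at 0. The tail library also carried Xist at 41.5 FPKM with 4 Y-linked genes listed at 0, where the other 6 libraries had Xist at or below 0.122 FPKM and Ddx3y at 33.1 FPKM or more. The cells also differed from their labels in part. The dorsal dermal library held basal keratinocyte markers (8 of 8 at 1 FPKM or more) at a median of 37.7% of their dorsal epidermal level, against 7.16% in WT and 10.7% in Koa ear dermis. All 7 cartilage markers were at 1 FPKM or more in both ear dermal libraries, and heat-shock and early response genes were high in dorsal and tail libraries (7 genes, 3392, 4601 and 6841 FPKM in sum in dorsal dermis, tail dermis and dorsal epidermis, 281 to 622 FPKM in the 4 ear libraries).

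**Figure D1:**
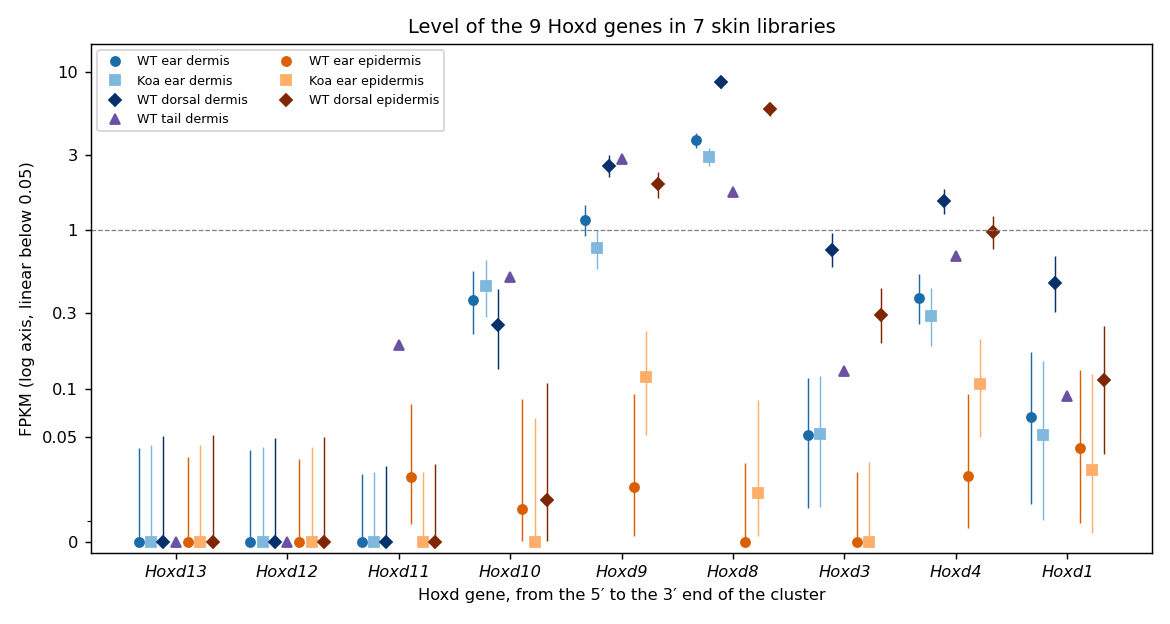
Level of each Hoxd gene in FPKM (log axis, linear below 0.05) in the order of the cluster; each point is 1 library and bars are exact 95% counting intervals, not available for tail. Hoxd8 is the highest gene in dorsal skin and ear dermis, Hoxd9 in tail dermis, and Hoxd12 and Hoxd13 lie at 0 throughout.

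Hoxd8, a gene of the middle of the cluster active in the trunk of the embryo, was the most abundant member in 4 libraries. It stood at 8.58 FPKM in dorsal dermis, 5.82 in dorsal epidermis, 3.71 in WT ear dermis, 2.90 in Koa ear dermis, 1.74 in tail dermis and 0.0231 in Koa ear epidermis. It was listed at 0 in WT ear epidermis, where 3 fragments would have given 0.0306 FPKM. It was thus above 1 FPKM in both layers of the back and in dermis of every site, lowest of these in tail, and at or near 0 in ear epidermis of both genotypes. In fragments these levels were 670 in dorsal dermis, 448 in dorsal epidermis, 326 and 248 in WT and Koa ear dermis, and 2 in Koa ear epidermis, counted over its longest transcript. If all reads came from the shortest of its 3 annotated transcripts the same levels would be 97, 65, 47, 36 and 0 fragments, and the counting intervals would be wider.

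Hoxd9, which acts with Hoxa9 in the forelimb of the mouse embryo, was lower and had its highest level in tail. Its levels were 2.84 FPKM in tail dermis, 2.56 in dorsal dermis, 1.95 in dorsal epidermis, 1.16 in WT ear dermis, 0.771 in Koa ear dermis, and 0.119 and 0.0261 in the ear epidermis of Koa and WT mice. The order was that of Hoxd8 with 1 exception: tail, which was the lowest dermis for Hoxd8, was the highest library for Hoxd9. Its tail level lies within the counting interval of dorsal dermis, 2.18 to 2.99 FPKM. The ratio of Hoxd9 to Hoxd8 was 0.312 in WT ear dermis, 0.298 in dorsal dermis, 0.335 in dorsal epidermis and 0.266 in Koa ear dermis, and 1.63 in tail dermis. In ear epidermis it rests on few fragments, at 5.15 in Koa (8 and 2 fragments), with 2 Hoxd9 fragments and Hoxd8 listed at 0 in WT. A ratio within a library does not depend on its scaling, though it does depend on how the tail column was made, whose part in it was not tested.

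Hoxd4, one of the pair that shapes the neck vertebrae, stood at 1.53 FPKM in dorsal dermis, 0.978 in dorsal epidermis, 0.69 in tail dermis, 0.373 in WT ear dermis, 0.286 in Koa ear dermis, and 0.108 and 0.0315 in the ear epidermis of Koa and WT mice. Dorsal skin was highest in both layers, as for Hoxd8. Only dorsal dermis passed 1 FPKM, and the counting intervals of WT and Koa ear dermis (0.257 to 0.531 and 0.186 to 0.431 FPKM) overlap. Its partner Hoxd3 followed the same sites at a lower level, at 0.755 FPKM in dorsal dermis (67 fragments), 0.292 in dorsal epidermis (26 fragments), 0.13 in tail dermis, 0.0521 in Koa and 0.0509 in WT ear dermis (5 fragments each), and was listed at 0 in both ear epidermal libraries. Hoxd1, the gene at the 3′ end, stood at 0.466 FPKM in dorsal dermis (25 fragments), 0.114 in dorsal epidermis (6 fragments) and 0.09 in tail dermis, and between 0.034 and 0.0663 FPKM (2 to 4 fragments) in the 4 ear libraries. For all of Hoxd1, Hoxd3, Hoxd4 and Hoxd8 the dorsal dermal library was therefore the highest of the 7.

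The 5′ genes were low or unseen. Hoxd10, a gene of the hindlimb and of lumbar motor neurons in mouse, was the member whose levels followed the layer more than the site. It stood at 0.51 FPKM in tail dermis, 0.443 in Koa ear dermis (25 fragments), 0.364 in WT ear dermis (21 fragments) and 0.253 in dorsal dermis (13 fragments), against 0.0199 in dorsal epidermis and 0.0156 in WT ear epidermis (1 fragment each), and it was listed at 0 in Koa ear epidermis. All 4 dermal libraries lay above all 3 epidermal ones. Hoxd11, a forearm gene of the mouse embryo, stood at 0.19 FPKM in tail dermis and 0.0307 in WT ear epidermis and was listed at 0 in the other 5 libraries. The ear epidermal value corresponds to 4 fragments over its longest and 1 over its shortest transcript. Hoxd12 and Hoxd13 were listed at 0 in all 7 libraries, where 3 fragments would have given between 0.0319 and 0.0406 FPKM for Hoxd12 and between 0.0326 and 0.0415 for Hoxd13 in the 6 libraries of known depth.

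Back and ear dermis were compared first, since the contrast of trunk and ear skin is the main one of the design. In all, 6 members had a level in both libraries, and 5 of these 6 were higher in dorsal dermis. Hoxd8 was 2.31 times its ear level (95% counting interval 2.02 to 2.65), Hoxd9 2.21 times (1.68 to 2.92) and Hoxd4 4.11 times (2.73 to 6.23). Towards the 3′ end the ratios were larger, at 14.8 times for Hoxd3 (6.14 to 47.9) and 7.03 times for Hoxd1 (2.42 to 27.8), and on few fragments. Hoxd10 went the other way, at 0.696 times its ear level, with an interval of 0.32 to 1.46 that spans 1. Counted over its shortest transcript, Hoxd8 had a ratio of 2.32 with an interval of 1.62 to 3.36. In bulk RNA, fewer cells of a type and less RNA per cell cannot be told apart.

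Across the whole table a gene was counted where its log2(FPKM + 1) differed by 1 or more and it reached 1 FPKM in 1 of the 2 libraries. By that rule 18.8% of 14234 genes differed between dorsal and ear dermis, 11.7% higher in dorsal dermis. Of the 9 Hoxd genes 3 reached that level, and 1 of these 3 was higher, Hoxd8, by 1.02 on this log2 scale. Hoxd4 differed by 0.88 and Hoxd9 by 0.72, both under the rule. The median over the 3 was 0.88, beside -0.05 over all genes. Among the other clusters the counts were 6 higher and 1 lower of 7 Hoxa genes with a median of 1.62, 8 higher of 9 Hoxb genes with a median of 2.47, and 7 higher of 7 Hoxc genes with a median of 2.70. Hoxd4 and most of these genes passed the filter on level through dorsal dermis alone, which favours a difference, so the medians are a description and no ranking of the clusters. Adding 1 FPKM before taking logs shrinks differences of genes as low as these.

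Other cells moved with this comparison. In dorsal against ear dermis 8 of 8 basal keratinocyte markers were higher (6387 against 775 FPKM in sum), 7 of 7 stress genes were higher, 7 of 7 cartilage markers were lower (5.56 against 461 FPKM), and 8 fibroblast markers had a median ratio of 0.613. None of the fibroblast or keratinocyte markers was at 0 in either library. When the basal keratinocyte share of 37.7% of the dorsal epidermal level was subtracted, Hoxd8 in dorsal dermis went from 8.58 to 6.39 FPKM, Hoxd9 from 2.56 to 1.82 and Hoxd4 from 1.53 to 1.17, still above the ear levels of 3.71, 1.16 and 0.371. Hoxd8 then differed by 0.65 on the log2 scale and no Hoxd gene passed the rule. Over all genes 4845 of 13481 passed after the subtraction, against 2674 of 14234 before it. Scaling the dermal libraries by their fibroblast markers, an alternative chosen after the data were seen, moved the median of all genes by 0.65 and brought 4 members past the rule (Hoxd3, Hoxd4, Hoxd8 and Hoxd9). It also brought 4437 of 14744 genes past the rule. Under that scaling the share of genes called higher went from 62.5% to 90.7%, and Hoxd10 turned from -0.12 to 0.05 on the log2 scale. The part of these cell types and of stress in the difference was not tested.

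**Figure D2:**
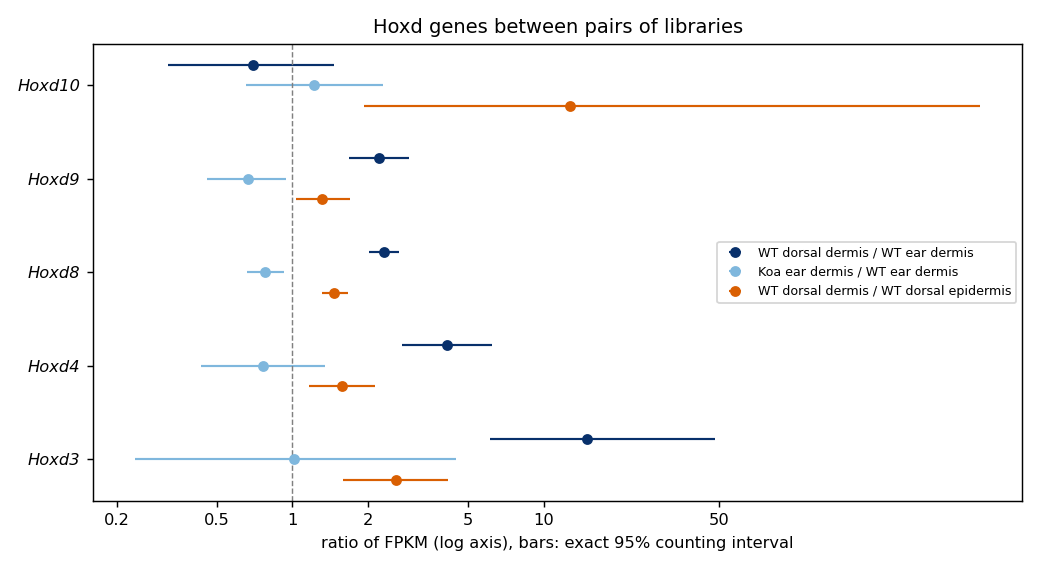
Ratio of FPKM between pairs of libraries for 5 Hoxd genes (log axis), with exact 95% counting intervals that do not cover variation between animals. The dorsal to ear dermal ratio is above 1 in 4 of the 5 genes, with Hoxd3 at 14.8, and the Koa to WT ratio is below 1 for Hoxd8, Hoxd9 and Hoxd4.

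Within WT ear dermis the Hoxd cluster held 19.1% of the summed FPKM of all 39 Hox genes, where Hoxa2 alone stood at 19.3 FPKM. That share was 10.25% in Koa ear dermis, 8.17% in dorsal dermis, 3.77% in tail dermis and 3.13% in dorsal epidermis. It was 1.01% and 0.533% in the ear epidermis of Koa and WT mice. Beyond the anterior genes, Hoxd held most of the Hox RNA of WT ear dermis. The Hox genes of paralog numbers 4 to 13 count 31, a range chosen after the levels were seen, and the 2 of them that reached 1 FPKM were Hoxd8 and Hoxd9. None of the other 24 did, and the highest of those was Hoxb4 at 0.360 FPKM. The 7 Hoxd genes in this range had 5.61 of 7.67 FPKM in sum, or 73.1%. The share over this range was 19.7% in Koa ear dermis, 8.71% in dorsal dermis and 4.03% in tail dermis. It was 3.56% in dorsal epidermis, and 1.48% and 0.818% in the ear epidermis of Koa and WT mice. The summed level of all 9 Hoxd genes, in contrast, ran from 14.2 FPKM in dorsal dermis over 9.18 in dorsal epidermis, 6.19 in tail dermis, 5.73 in WT ear dermis and 4.51 in Koa ear dermis to 0.284 and 0.149 in Koa and WT ear epidermis. The order of the shares and that of the levels therefore differ: WT ear dermis led in share and had less Hoxd RNA than dorsal or tail skin.

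Paralogs of the same number were set side by side. In WT ear dermis Hoxd8 at 3.71 FPKM stood beside Hoxc8 at 0.241 and Hoxb8 at 0.0225, and Hoxd9 at 1.16 FPKM beside Hoxb9 at 0.11, Hoxc9 at 0.109 and Hoxa9, which was listed at 0. In dorsal dermis Hoxd8 at 8.58 FPKM lay between Hoxc8 at 29.5 and Hoxb8 at 5.58. Hoxd9 at 2.56 FPKM in dorsal dermis lay between Hoxb9 at 3.68 and Hoxa9 at 1.91, with Hoxc9 at 7.24 the highest. Among all 39 Hox genes Hoxd8 had rank 2 in WT ear dermis, behind Hoxa2 at 19.3 FPKM, and rank 6 in dorsal dermis.

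**Figure D3:**
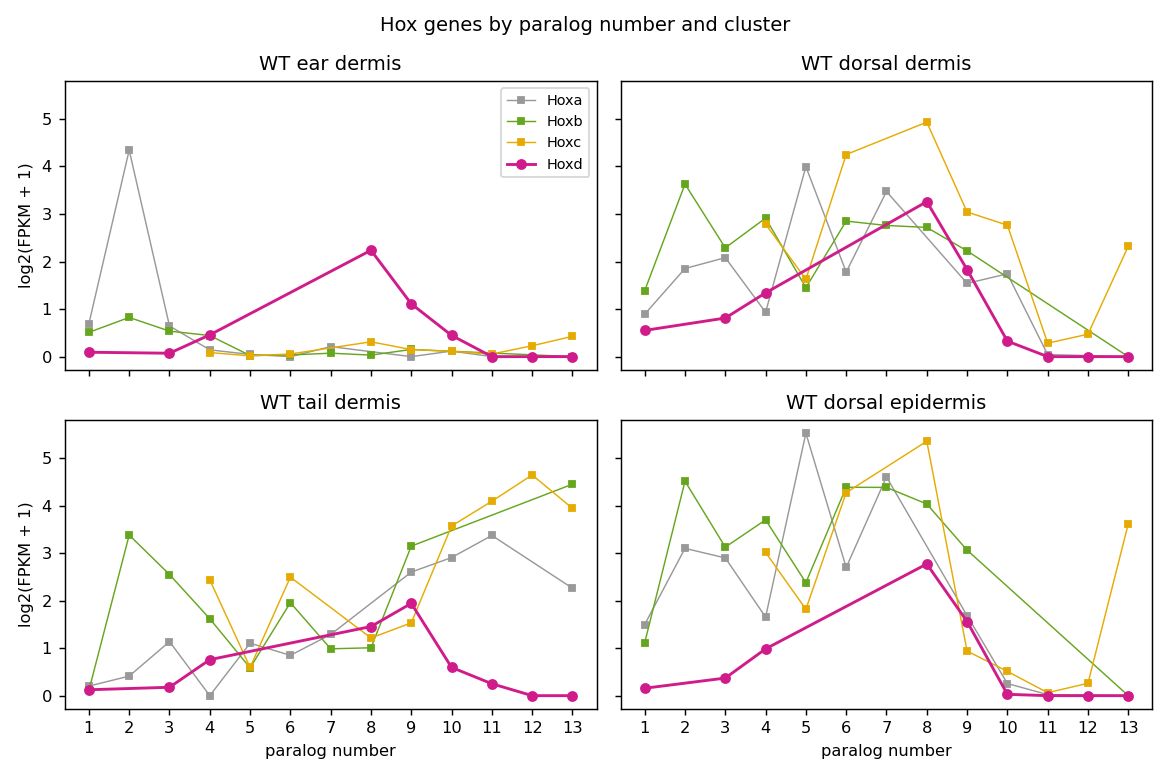
log2(FPKM + 1) of each Hox gene by its paralog number in 4 WT libraries, 1 line per cluster; lines join neighbouring genes across missing paralogs. In ear dermis the Hoxd line at numbers 8 and 9 stands alone above the other clusters, and in tail dermis Hoxd falls to 0 at numbers 12 and 13 where the other clusters are high.

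Tail dermis, from the most posterior site, was compared next. By the same rule 33.3% of 13666 genes differed between tail and ear dermis, mostly lower in tail, and 0 of the 2 Hoxd genes at that level did. Hoxd9 was higher by 0.83 on the log2 scale (2.45 times), Hoxd8 lower by 0.78 (0.468 times), and both lay under the rule. The median over all genes was itself at -0.51, and scaling by the median ratio of the libraries moved that median by 0.29. The scaling took Hoxd9 to 1.08, past the rule, and the share called higher from 19.0% to 33.7%. Between tail and dorsal dermis 36.1% of 14063 genes differed, 29.0% lower in tail, and 1 of the 3 Hoxd genes at that level was lower. This was Hoxd8, which fell by 1.81 (0.203 times its dorsal level), and there Hoxd4 differed by -0.58 and Hoxd9 by 0.11. The median of all genes in that contrast was -0.48, the 2 scalings moved it by 0.21 and -0.31, and the share called higher went from 19.5% to 29.0% and 10.4% under them. Against dorsal dermis the tail library had 8 of 8 basal keratinocyte markers lower (131 against 6387 FPKM in sum, none at 0) and 6 of 6 suprabasal markers lower. Of 4 endothelial markers 3 were higher and 1 was lower, and of 5 immune markers 3 were lower and 1 was higher. Of 8 fibroblast markers 2 were higher and 1 was lower, and of 7 stress genes 1 was higher and 1 was lower. Against ear dermis 6 of 8 basal keratinocyte, 7 of 7 cartilage and 5 of 5 immune markers were lower. There 7 of 7 stress genes and 3 of 4 endothelial markers were higher, and of 6 suprabasal markers 3 were lower and 1 was higher. The part of these cell types, of stress, of the form of the tail values and of whatever sets its Xist and Y-linked levels apart was not tested. The comparisons with ear dermis share its 1 library, as those with dorsal dermis share theirs.

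At the 5′ end Hoxd lay under the other clusters in tail. At paralog number 13 the tail held Hoxb13 at 20.8 FPKM, Hoxc13 at 14.4 and Hoxa13 at 3.79, and Hoxd13 was listed at 0. Hoxc12 stood at 24.0 FPKM with Hoxd12 listed at 0, Hoxc11 at 16.0 and Hoxa11 at 9.34 with Hoxd11 at 0.19, and Hoxc10 at 10.9 and Hoxa10 at 6.49 with Hoxd10 at 0.51. Each Hoxd gene from 10 to 13 was thus the lowest of its paralogs in this library. Because genes with high levels elsewhere are also listed at 0 in the tail column, a 0 there shows only how the gene is listed. Hoxd12 and Hoxd13 were listed at 0 in the other 6 libraries as well. In ear dermis, by contrast, Hoxd10 at 0.364 FPKM was above Hoxa10 at 0.0842 and Hoxc10 at 0.0804.

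Between Koa and WT ear dermis the ratios of the 6 Hoxd genes with a level in both lay between 0.665 and 1.22. Hoxd8 in Koa was 0.781 times its WT level (95% counting interval 0.66 to 0.925), Hoxd9 0.665 times (0.456 to 0.945) and Hoxd4 0.767 times (0.434 to 1.35). Hoxd10 stood at 1.22 times (0.657 to 2.30), and Hoxd3 at 1.02 times on 5 fragments in each library. The counting intervals of Hoxd8 and Hoxd9 lie under 1, but with the shortest transcript the Hoxd8 interval was 0.497 to 1.24, and variation between animals was not measured. By the size rule 2.78% of 13690 genes differed, and 0 of the 2 Hoxd genes at that level did, with differences of -0.27 for Hoxd8 and -0.29 for Hoxd9 on the log2 scale. In the same pair of libraries 4 of 5 Hoxc genes at that level were higher in Koa, such as Hoxc8 at 10.2 against 0.241 FPKM, so that Hoxc8 and not Hoxd8 was the most abundant gene of paralog number 8 in Koa ear dermis. The lower Hoxd share in Koa, 19.7% against 73.1%, goes with a change of the sum over paralog numbers 4 to 13 from 7.67 to 22.3 FPKM, while its Hoxd part was 5.61 and 4.4 FPKM. Basal keratinocyte markers were higher in Koa ear dermis in 4 of 8 (1930 against 775 FPKM in sum) and suprabasal markers in 3 of 6. Of 5 immune markers 3 were lower and 1 was higher (226 against 391.5 FPKM in sum), and fibroblast markers had a median ratio of 1.07. Their part in these values was not tested.

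In ear epidermis the Koa comparison rested on a handful of fragments. Hoxd9 had 8 fragments in Koa and 2 in WT, a ratio of 4.56 with a counting interval of 0.916 to 44.4. Hoxd4 had 9 and 3 fragments, a ratio of 3.42 (0.86 to 19.8). A difference was not detectable at this depth in either. No Hoxd gene reached 1 FPKM in these 2 libraries, so none could be counted beside the 3.0% of 12062 genes that differed.

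In dorsal epidermis Hoxd3, Hoxd4, Hoxd8 and Hoxd9 had 26 fragments or more, and in ear epidermis of either genotype none of them had more than 9. By the size rule 11.5% of 12500 genes were higher in dorsal than in ear epidermis, and 2 of the 2 Hoxd genes at that level were, Hoxd8 by 2.77 and Hoxd9 by 1.52 on the log2 scale. Both passed the filter on level through dorsal epidermis alone, so this count is a description. Hoxd9 was 74.6 times its WT ear epidermal level (20.5 to 632, on 119 and 2 fragments) and Hoxd4 31.0 times (10.2 to 154, on 73 and 3 fragments). Hoxd8 had 448 fragments in dorsal epidermis and Hoxd3 26, and both were listed at 0 in WT ear epidermis. Hoxd10 had 1 fragment in each. Beside them 8 of 9 Hoxb genes, 5 of 8 Hoxa genes and 4 of 5 Hoxc genes at that level were higher in dorsal epidermis. Stress genes were higher in 7 of 7 and fibroblast markers in 3 of 8 (33.5 against 19.3 FPKM in sum), and their part was not tested.

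Layers were then compared within each site. In WT ear skin 21.3% of 13840 genes were higher in dermis, and 2 of the 2 Hoxd genes at that level were, Hoxd8 by 2.24 and Hoxd9 by 1.07 on the log2 scale, having passed the filter through dermis alone. Hoxd9 was 44.4 times its epidermal level (12.1 to 380), Hoxd10 23.3 times (3.77 to 969) and Hoxd4 11.8 times (3.73 to 60.8). In Koa ear skin 20.4% of 13954 genes were higher in dermis, with 1 of the 1 Hoxd gene at that level, Hoxd8 by 1.93, which also passed the filter through dermis alone. There Hoxd8 was 125 times its epidermal level (33.9 to 1030, on 248 and 2 fragments), Hoxd9 6.47 times (3.06 to 15.8) and Hoxd4 2.66 times (1.2 to 6.51). The dermal library was thus above the epidermal one for Hoxd4, Hoxd8, Hoxd9 and Hoxd10 in the ears of both genotypes.

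In dorsal skin the layers were close. By the size rule 24.4% of 13896 genes differed between dorsal dermis and epidermis and 0 of the 3 Hoxd genes at that level did. Dermis was 1.47 times epidermis for Hoxd8 (1.31 to 1.67), 1.31 times for Hoxd9 (1.03 to 1.69), 1.57 times for Hoxd4 (1.16 to 2.13) and 2.58 times for Hoxd3 (1.59 to 4.17), whereas Hoxd10 stood at 12.7 times (1.93 to 545) and Hoxd1 at 4.08 times (1.65 to 12.3). All 6 had dermis above epidermis. Scaling by the median ratio of the libraries raised the median difference of all genes, dermis against epidermis, by 0.24 to 0.30 in the 3 layer contrasts, and the share of genes called higher in dermis went from 59.7% to 70.1% in WT ear, from 61.5% to 71.0% in Koa ear and from 66.1% to 84.3% in dorsal skin.

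Among genes at 1 FPKM or more in either layer of WT skin, most genes of the other clusters were higher in epidermis. This description rests on 1 library per layer and site. Among genes at 1 FPKM or more in either layer of dorsal skin, epidermis exceeded dermis in 8 of 9 Hoxa, 8 of 9 Hoxb and 5 of 7 Hoxc genes, and in 0 of 3 Hoxd genes. Epidermal Hoxd levels were 63.8% to 76.2% of dermal ones, while the median was 225% for Hoxa, 200% for Hoxb and 120% for Hoxc. Over all genes the median log2 difference, dermis against epidermis, was itself -0.14 in dorsal and -0.09 in WT ear skin. Median-ratio scaling moved the dorsal median by 0.30, and these counts were not recomputed under it. Hoxc4, Hoxc5 and Hoxc6 lay near equal levels, at 120%, 121% and 101%, so the Hoxc count is sensitive to scaling. Hoxb8 at 15.4 FPKM in dorsal epidermis and 5.58 in dorsal dermis is an example beside Hoxd8 at 5.82 and 8.58. In WT ear skin the same order held among genes at that level. Epidermis was above dermis in 3 of 4 Hoxa, 2 of 2 Hoxb, 1 of 1 Hoxc and 0 of 2 Hoxd genes. Genes of the other clusters under 1 FPKM in both WT ear layers went both ways. Hoxb4 stood at 0.36 FPKM in dermis and 0.115 in epidermis, and Hoxa5 at 0.0328 and 0.917. In Koa ear skin Hoxc lay on the side of Hoxd, with dermis above epidermis in 5 of 6 Hoxc genes (median 31.1%) and in 1 of 1 Hoxd gene, while epidermis was above dermis in 3 of 4 Hoxa and 2 of 2 Hoxb genes. Fibroblast markers in dorsal epidermis were at a median of 0.483% of their dermal level (8 genes, 0.309% to 1.11%) and in WT ear epidermis at 0.143%, and their part in the epidermal Hoxd levels was not tested. With 37.7% of the epidermal keratinocyte level present in dorsal dermis, the dorsal dermal library was not a pure layer.

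**Figure D4:**
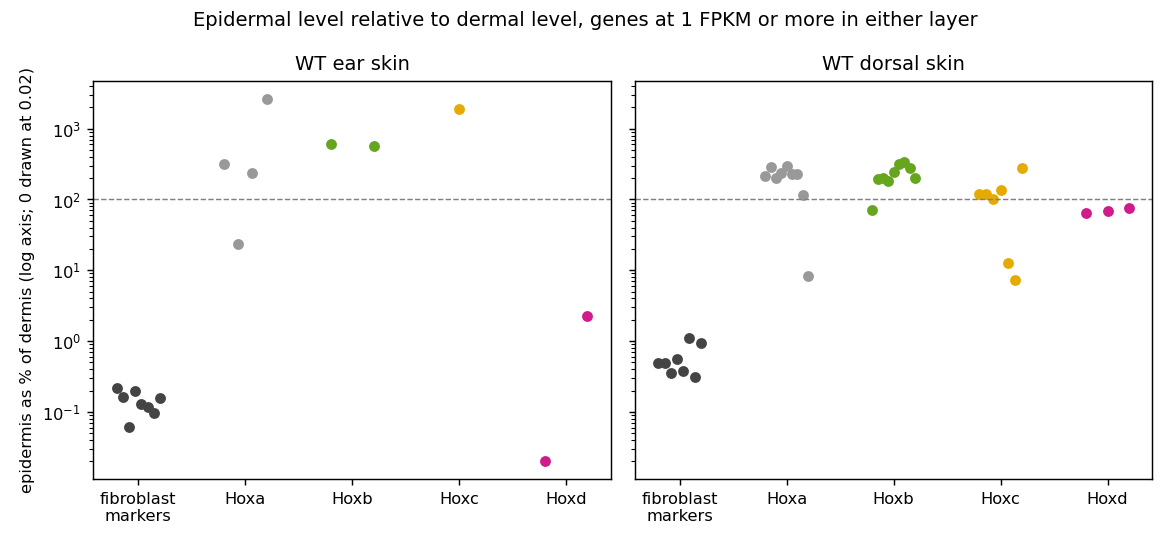
Epidermal level as a percentage of the dermal level (log axis, 0 drawn at 0.02) for fibroblast markers and for Hox genes at 1 FPKM or more in either layer; each point is 1 gene, and the dashed line marks equal levels. In dorsal skin the 3 Hoxd genes lie at 63.8% to 76.2%, under the line, and most Hoxa and Hoxb genes lie above it.

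Genes of proteins that bind DNA together with Hox factors were also followed. The list of 9 cofactors holds the Pbx, Meis and Pknox genes. Between dorsal and ear dermis 0 of the 8 at that level were higher and 2 were lower by the size rule, with a median of -0.53, beside 11.7% higher and 7.05% lower over all genes. Pbx2 stood between 11 and 31.6 FPKM over all 7 libraries. Meis2 was at 20.6 and 20.3 FPKM in WT and Koa ear dermis, 5.33 in tail dermis and 3.40 in dorsal dermis, and between 2.38 and 2.51 in epidermis, and Meis1 at 24.5, 25.5, 11.6 and 10.2 FPKM in the same 4 dermal libraries. Both Meis genes were thus highest in ear dermis, where Hoxd8 was lower than in dorsal dermis. Genes flanking the cluster were counted as well. Of 17 neighbours at that level between dorsal and ear dermis 0 were higher and 1 was lower, with a median of -0.28. Over all genes the shares were again 11.7% higher and 7.05% lower. Between tail and ear dermis 9 of 17 were lower, with a median of -1.09, beside 27.0% lower over all genes. Mtx2, a mitochondrial import gene on the 3′ side, stood at 27.1, 27.6 and 27.5 FPKM in WT ear, Koa ear and dorsal dermis, 11 in tail dermis and 38.5 to 49.3 in epidermis, and Evx2, the homeobox gene on the 5′ side, at or below 0.0689 FPKM in all libraries.

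Over the 7 libraries log2(FPKM + 1) of Hoxd9 and Hoxd4 had a Pearson r of 0.90, Hoxd8 and Hoxd4 0.87, and Hoxd9 and Hoxd8 0.81, and without the tail library these were 0.95, 0.89 and 0.98. Of 14637 genes the 3 most like Hoxd8 were Herpud1 (r = 0.993), H2-M3 (0.992) and Pvt1 (0.985). Those most like Hoxd9 were Rep15 (0.993), Tubb2b (0.988) and Soat2 (0.987), and those most like Hoxd4 were Apeh (0.981), Fbxo30 (0.975) and Gm765 (0.964). These points share libraries, and 15, 24 and 11 genes reached 0.95 with Hoxd8, Hoxd9 and Hoxd4, and 96, 93 and 173 did over the 6 libraries without tail. Without tail 2 of the 3 genes stayed in the first 3 for Hoxd8, 2 for Hoxd9 and 0 for Hoxd4.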

How the data were processed

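RNA of flow-sorted mouse skin cells was measured in 7 libraries, 1 per group. The authors deposited 1 table of FPKM values. Its tools were Cufflinks 2.2.1 and TopHat2 2.0.13, and its builds mm9 and GRCm38, per the submitters' processing notes. The role of each build, the annotation and the strand setting are not given in the sources used here. Differences were taken on the log2(FPKM + 1) scale, which understates changes of low genes, over genes at 1 FPKM or more in 1 of the 2 libraries, and a difference of 1 or more was counted. Col1a1, Col1a2 and Col3a1, each listed at 0 in some dermal libraries, were left out of counts. Depths of 6 libraries came from whole-fragment steps in low FPKM values of 3067 genes with 1 transcript (79.3% to 82.0% of values within 0.1 of a whole fragment); 20 of 22 nonzero Hoxd values under 35 fragments came within 0.25 of a whole number. Steps were tested on simulated data. Exact 95% intervals and the limit of 3 fragments cover counting error only, and the reads carry no stated molecular identifiers. No count model and no p-value was used. Positions, transcripts and promoters came from RefSeq (GRCm38.p6).

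The text names all 9 members, their paralogs, the 3 genes with the highest r to each member at 1 FPKM, and up to 4 genes of each list by highest level; Meis1, Meis2, Mtx2, Evx2, Hoxd3os1, Xist, Ddx3y and Hoxa2 were chosen once their values were known, and 1 gene that the rule gives is not reported here. Members, lists and tests were chosen with earlier results of these data known. Other pseudocounts (0.1 and 5), a filter at 5 FPKM or none, a median-ratio scaling, subtraction of keratinocyte RNA and, added later, a fibroblast scaling were tried. Python 3.11.15, numpy 2.4.6, pandas 2.3.3, scipy 1.17.1 and matplotlib 3.10.9 were used.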

Additional observations from a re-analysis of the deposited data

Results flagged for a closer look

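For 2 members the Koa and WT libraries differed in opposite directions in the 2 layers of the ear. On the log2(FPKM + 1) scale, Koa minus WT, Hoxd9 differed by -0.29 in ear dermis and by 0.13 in ear epidermis. Hoxd4 differed by -0.09 in dermis and by 0.1 in epidermis. The difference between the layers was not tested, since each group had 1 library, and the epidermal values rest on 2 to 9 fragments.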

How the results depend on the processing

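Of 43 recomputed counts of Hoxd genes past the size rule, 31 stayed within 1.5 times the main count and 12 moved. Counts without a filter were bound to stay, since a difference of 1 on this scale needs at least 1 FPKM. Between dorsal and ear dermis the count of 1 became 3 with a pseudocount of 0.1, 0 with a pseudocount of 5, 0 after subtraction of keratinocyte RNA and 4 under fibroblast scaling, an alternative chosen after seeing the data. Between tail and ear dermis the count of 0 became 2 with a pseudocount of 0.1, 1 under median-ratio scaling and 1 under fibroblast scaling. Over all genes the same count went from 4550 of 13666 to 5774 of 13666, 3844 of 13784 and 3842 of 13784. Between tail and dorsal dermis 1 became 2 with a pseudocount of 0.1, while over all genes 5075 became 6238 of 14063. Between dorsal and ear epidermis 2 became 1 with a pseudocount of 5 and 1 with a filter at 5 FPKM. There 2116 of 12500 genes became 997 of 12500 and 1642 of 9712. With a pseudocount of 5 the layer contrasts went to 0 in WT ear (main count 2) and 0 in Koa ear (main count 1). Over all genes they went from 4931 to 2888 of 13840 in WT ear and from 4620 to 2664 of 13954 in Koa ear. A larger pseudocount shrinks differences of low genes by construction; the cause of the other moves was not tested. Among 204 recomputed differences of single members 65 moved and the sign turned in Hoxd10 between dorsal and ear dermis (-0.39 to 0.05) and Hoxd9 between tail and dorsal dermis (-0.16 to 0.30). The filter does not enter a single difference, so those of the 204 that changed only the filter could not move. Over all genes the count between dorsal and ear dermis went from 2674 of 14234 to 3680 with a pseudocount of 0.1 and to 1277 with a pseudocount of 5. It went to 4845 of 13481 after subtraction of keratinocyte RNA and to 4437 of 14744 under fibroblast scaling. A filter at 5 FPKM left no Hoxd gene in some contrasts, and in the Koa ear epidermis contrast none was tested, so they give no value. No paired analysis was run, because each group had 1 library and the labels tie no dermal library to an epidermal library of the same animal. Low levels, 1 library per group and an unknown tail depth limit all of these values.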
